A study of Rattus norvegicus with 22 samples.

Results

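The constitutive proteasome subunits and their assembly factors were followed in rat liver as 41 of the 26276 gene names on the array. A gene was a member when its name began with Psma, Psmb, Psmc, Psmd, Psmf or Psmg followed by a digit, with the inducible subunits Psmb8, Psmb9 and Psmb10 left out, and each gene was read from its brightest probe. By role these were 7 genes of the alpha ring, 7 of the beta ring, the thymic beta subunit Psmb11, 6 ATPases and 3 other subunits of the base, 8 subunits of the lid, 3 assembly chaperones of the base and 3 of the core, the inhibitor Psmf1, and 2 genes set apart. The last pair was Psmc3ip, which shares only the start of its name and is known as a partner in meiotic recombination, and Psma3l, an alpha-type entry whose probe starts 1059 bases from that of Psma3. Psmg3 was not analysed here.

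The proteasome degrades proteins that carry ubiquitin chains. Its barrel-shaped core is built from alpha and beta rings and cuts proteins inside, at active sites on Psmb5, Psmb6 and Psmb7, while the regulatory cap, made of a base with ATPases and a lid with a deubiquitinase, receives, unfolds and feeds in the substrate. In liver, as in other tissues, its subunits are made together, and Nfe2l1 and Nfe2l2 are known transcription factors of these genes. When interferon signalling is active, Psmb8, Psmb9 and Psmb10 can take the places of Psmb5, Psmb6 and Psmb7.

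Liver RNA of 22 male Sprague-Dawley rats was measured, 1 rat on each Agilent two-colour array, against a common reference RNA pooled from healthy 10-week rats outside the experiment. CD 3 (5 rats) and CD 14 (6 rats) received a semi-synthetic control diet for 3 and 14 months, and BD 3 (5 rats) and BD 14 (6 rats) received the BASE-diet, a semi-synthetic diet with 6% salmon fat in place of most of the lard, 8% linden flower extract, 8% pumpkin puree and 1% of a pair of probiotic strains, and also with more rapeseed oil, less wheat starch and no added water. Age and time of feeding ran together and cannot be told apart. The rats were separate animals, each sample was liver tissue, and a change in the number of cells of a type and in the RNA per cell cannot be told apart in such samples.

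Values are given as log2 of the ratio of the rat (Cy5) to the reference (Cy3), so 1 is a doubled ratio, and levels of different genes are not set against each other. All 41 members were well above background in both channels on all 22 arrays, and 0 had a saturated spot. All 10 hepatocyte markers examined, among them Alb and Apoa1, were also well above background on every array. The share of spots well above background was 52.4% on the array of CD 3 rat 4, which had the dimmest Cy5 signal, and between 66.2% and 93.6% on the others, and CD 3 rat 1 and CD 14 rat 1 had 4.44% and 4.05% of spots flagged as non-uniform against at most 0.063% elsewhere. There were 5 slides, and the scan day went with the slide. All 6 BD 14 arrays shared a slide with 2 of CD 14, 3 BD 3 arrays shared one with 3 of CD 14, another held 1 CD 3 and 2 BD 3 arrays, another 1 CD 3 and 1 CD 14, and the last 3 of CD 3, so slide and group were partly confounded. No slide held both BD 3 and BD 14 arrays, so a fit with the slide as a block compares these groups only through control arrays. For diet at 14 months such a fit rests on the slide of 6 BD 14 and 2 CD 14 arrays.

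The probes behind the 3 catalytic subunits, and behind the 3 regulatory subunits that recur in the results, are shown first because every value rests on these stretches of transcript. Each is 60 bases, printed 5′ to 3′ as the array files list it, with rn4 coordinates. No part is marked in capitals. Whether a stretch is coding or untranslated was not analysed here, because the sources used here hold no annotation of that build. The Psmb7 probe covers 19875 bases of genome, so it spans an intron.
Psmb5, chr15:32690134-32690193, minus strand: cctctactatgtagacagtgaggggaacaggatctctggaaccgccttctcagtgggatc
Psmb6, chr10:57371368-57371427, plus strand: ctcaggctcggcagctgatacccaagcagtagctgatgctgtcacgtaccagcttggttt
Psmb7, chr3:18413231-18433105, minus strand: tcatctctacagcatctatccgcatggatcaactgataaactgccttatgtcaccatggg
Psmd7, chr19:37452992-37453051, minus strand: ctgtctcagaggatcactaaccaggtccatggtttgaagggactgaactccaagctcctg
Psmd3, chr10:87466177-87466236, plus strand: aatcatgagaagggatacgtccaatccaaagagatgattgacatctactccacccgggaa
Psmc4, chr1:83152227-83152286, minus strand: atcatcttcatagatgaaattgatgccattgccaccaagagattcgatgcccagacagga

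No member passed the test in any comparison. In limma's fit, 0 of 41 had an adjusted p under 0.05 for BD 3 against CD 3 (0.0% of 17063 genes tested), BD 14 against CD 14 (0.0%), CD 14 against CD 3 (0.0%), BD 14 against BD 3 (0.0%), BD 14 against CD 3 (0.281%), the interaction of diet and time (0.0%) or the F test over the 4 groups (0.0234%). At an unadjusted p under 0.05 the counts were 2 members for diet at 3 months (6.93% of all genes), 0 for diet at 14 months (4.1%), 1 for time on the control diet (10.1%), 0 for time on the BASE-diet (7.25%), 5 for BD 14 against CD 3 (16.8%), 1 for the interaction (4.56%) and 2 in the F test (10.2%). The one-way F test with Tukey's comparisons of the study's methods, adjusted over all probes, also called 0 members in each pairwise comparison. Outside the F test the members counted by unadjusted p all had positive estimates, and each count came to a smaller share of the 41 than the background in this fit. The counts moved with single rats: without CD 3 rat 2 they were 8 members for diet at 3 months (12.4% of all genes) and 10 for BD 14 against CD 3 (24.9%). At 3 months the members' share was then above the background, at 19.5%. With another background correction and normalization (normexp and loess) it was above too, 17.1% beside 8.36%. In no pairwise comparison did the groups of any member fail to overlap, while 0.756%, 0.697%, 0.504%, 2.2% and 1.45% of all genes had groups that did not overlap in the 5 comparisons in that order.

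For BD 3 minus CD 3 the median difference over the members was 0.058 on the log2 scale, beside 0.027 over all genes tested, and 26 members had higher and 15 lower estimates. For BD 14 minus CD 14 the median was 0.068 beside 0.031, with 29 higher and 12 lower. With each array centred on its median, 21 members were higher in each, and the medians were 0.017 and 0.0052. Leaving out 1 rat moved the median at 3 months between -0.00049 (20 higher, without CD 3 rat 1) and 0.16 (29 higher, without BD 3 rat 3), and that at 14 months between 0.034 and 0.14. A block for the slide gave medians of 0.23 at 3 months (33 higher, all genes 0.15) and 0.029 at 14 months (26 higher, all genes 0.015), and the 2 BD 3 arrays and 1 CD 3 array of a shared slide gave 0.40 (32 higher, 8 lower, all genes 0.26). With that block the estimates of 30 members at 3 months and 28 at 14 months kept their direction. The 95% interval of the difference lay within 1 of 0, which is less than a doubling or a halving, for 32 members at 3 months (55.3% of all genes) and 37 at 14 months (64.4%). Of 3 red cell markers tested, 2 were lower in BD 3 than in CD 3 at an unadjusted p under 0.05 and 0 were called, with a median difference of -0.96 and a mean on an array from -1.68 to 0.038 in CD 3 and from -2.40 to -0.47 in BD 3, and their part in the differences at 3 months was not tested. The 2 diet comparisons use no array in common, though a slide held arrays of BD 3 and CD 14. Without a block, 22 members had higher estimates in both (32.3% of all genes did) and 8 had lower estimates in both (24.7%). These counts were not taken under the alternatives, and some members vary together, so they are not counts of independent genes.

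**Figure D1:**
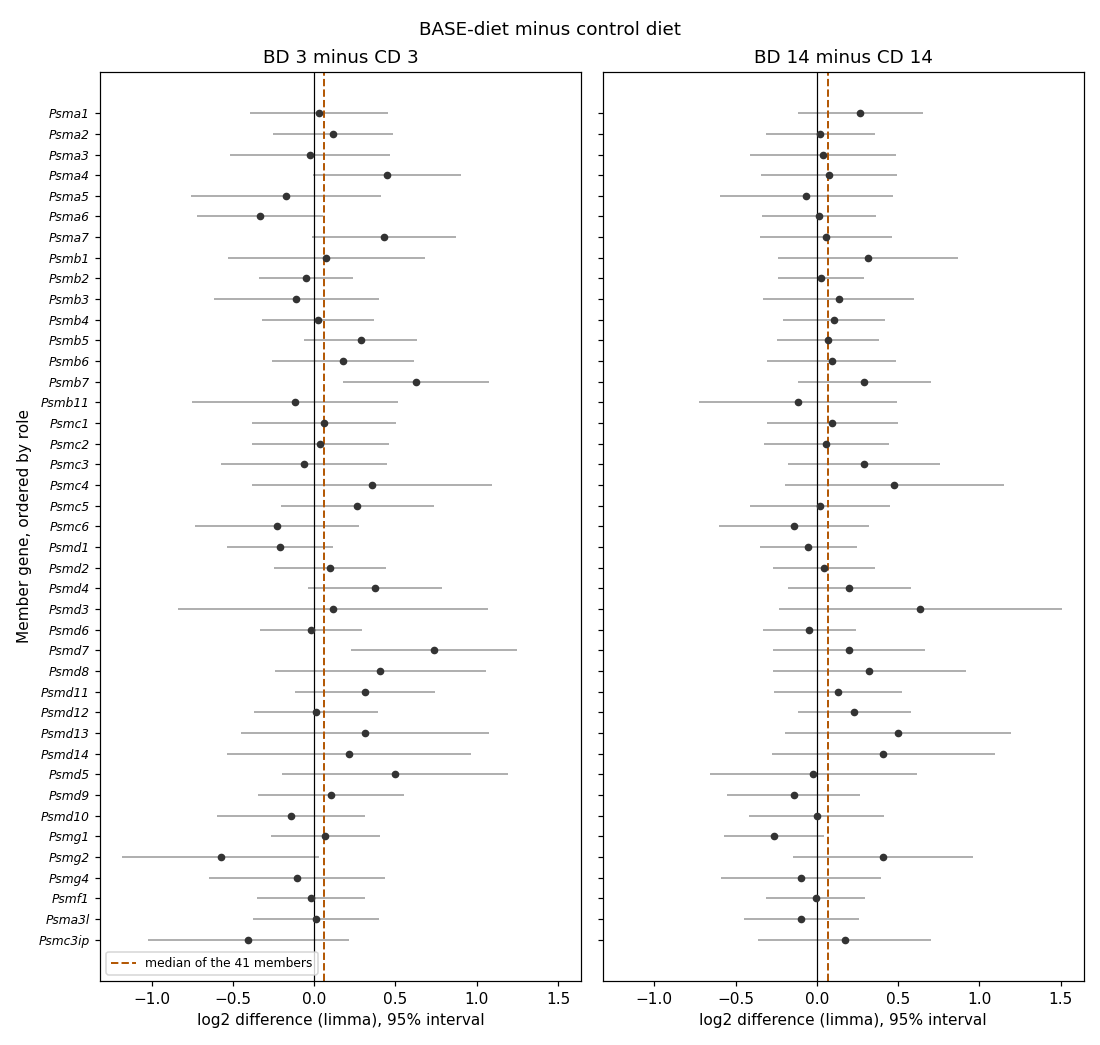
limma estimate of BASE-diet minus control diet for each of the 41 members at 3 months (left) and 14 months (right), on the log2 scale, with bars for the 95% interval. Most points lie near 0, and the intervals of Psmb7 and Psmd7 at 3 months are the ones that leave 0 out, neither passing after adjustment.

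Among the catalytic subunits, Psmb5 carries the chymotrypsin-like site. It read -0.35, -0.28, -0.33, -0.38 and -0.78 in the CD 3 rats and -0.020, 0.16, -0.52, -0.34 and 0.035 in the BD 3 rats. At 14 months it ran from -0.62 to -0.016 with a median of -0.42 in CD 14 and from -0.50 to -0.068 with a median of -0.35 in BD 14. The groups overlapped at both times, and CD 3 rat 5 stood below its group. The differences by diet were 0.29 (95% interval -0.061 to 0.63, adjusted p = 0.785 by limma) at 3 months and 0.068 (95% interval -0.25 to 0.38, adjusted p = 0.97 by limma) at 14 months, the latter 0.027 with a slide block.

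Psmb6, with the caspase-like site, read -0.26, 0.81, -0.12, -0.66 and -0.028 in CD 3 and 0.28, 0.15, -0.29, 0.079 and 0.40 in BD 3. The CD 3 rats spread on both sides of the whole BD 3 group, rat 2 being the highest and rat 4 the lowest of all. It ran from -0.18 to 0.32 with a median of 0.022 in CD 14 and from -0.033 to 0.25 with a median of 0.12 in BD 14, so the groups at 14 months were close. The differences were 0.18 (95% interval -0.26 to 0.61, adjusted p = 0.909 by limma) and 0.092 (95% interval -0.31 to 0.49, adjusted p = 0.967 by limma), and the latter was 0.0022 with a slide block. Leaving out each rat gave 0.023 to 0.39 for the former.

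Psmb7, with the trypsin-like site, had the largest estimates for diet of the 3 catalytic subunits. It read -0.66, -0.070, -0.83, -1.31 and -0.53 in CD 3 and 0.21, 0.078, -0.51, -0.36 and 0.31 in BD 3. Only CD 3 rat 2 reached into the BD 3 range, where rats 3 and 4 were the lowest. At 14 months it ran from -0.83 to 0.058 with a median of -0.42 in CD 14 and from -0.25 to 0.012 with a median of -0.11 in BD 14, and the BD 14 values lay together within the upper part of the CD 14 range. The difference by diet was 0.63 (95% interval 0.18 to 1.07, adjusted p = 0.513 by limma) at 3 months and 0.29 (95% interval -0.12 to 0.70, adjusted p = 0.952 by limma) at 14 months. With the Cy5 channel alone the estimates at 14 months were -0.22 for Psmb7 and -0.16 for Psmb5.

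On the control diet the estimates of CD 14 minus CD 3 were 0.038 for Psmb5, 0.093 for Psmb6 and 0.29 for Psmb7. On the BASE-diet, BD 14 minus BD 3 gave -0.18, 0.0088 and -0.046 in the same order. Adjusted p by limma was at least 0.684 in these 6 tests. With the Cy5 channel alone, BD 14 minus BD 3 was -0.43 for Psmb5 and -0.53 for Psmb7, and neither passed, and CD 14 minus CD 3 was -0.10 for Psmb5. Leaving out each rat gave -0.051 to 0.086 for Psmb5 and -0.060 to 0.31 for Psmb6 on the control diet. A slide block gave 0.26, 0.15 and 0.19 on the control diet and -0.063, -0.11 and 0.0071 on the BASE-diet. Within the slide of 1 CD 14 and 1 CD 3 array, the difference with time was -0.15 for Psmb6 and -0.31 for Psmb7, against the direction above.

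The inducible counterparts, given for comparison, spread more widely between rats. Psmb8, Psmb9 and Psmb10 had CD 14 minus CD 3 estimates of 1.44, 1.31 and 1.13, with adjusted p of 0.404, 0.385 and 0.361 by limma. All 3 were higher at an unadjusted p under 0.05 there (10.1% of all genes passed) and for BD 14 minus CD 3 (16.8%). Their estimates with the slide as a block were not analysed here. Psmb8 read -0.55, 2.07, -1.40, -1.66 and -0.29 in CD 3, and its mean was -0.37 ± 1.48 (SD, n = 5) there and 1.07 ± 0.97 (SD, n = 6) in CD 14. The corresponding means of Psmb5 were -0.42 ± 0.20 (SD, n = 5) and -0.39 ± 0.21 (SD, n = 6). Whether the inducible and constitutive subunits differ in their change with time was not tested. Of the 9 leukocyte markers tested, 7 had higher and 2 lower estimates (Itgam at -0.26 and Cd79b at -0.082) for CD 14 minus CD 3. Their median estimate was 0.77, 4 of them, all higher, had an unadjusted p under 0.05 (Ptprc, Cd68, Clec4f and Cd163), and their mean on an array ran from -1.70 to -0.035 in CD 3 and from -0.53 to 0.54 in CD 14. Of the 10 on the array, 7 were well above background on all arrays and none was at or under background on all, and their part in the result was not tested.

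**Figure D2:**
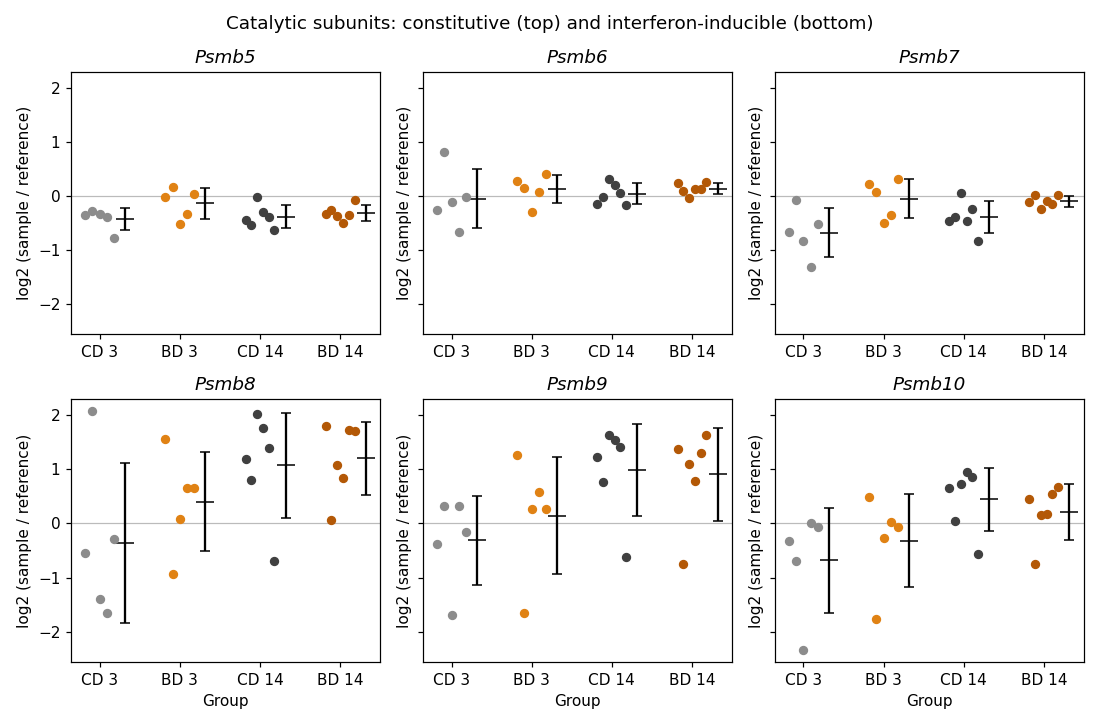
log2 ratio to the reference in each rat (points) for the constitutive catalytic subunits Psmb5, Psmb6 and Psmb7 (top) and the inducible Psmb8, Psmb9 and Psmb10 (bottom), with the mean and SD of each group beside the points. The groups overlap in every panel, and the inducible subunits run over a wider range than the constitutive ones.

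In the alpha ring, which gates the core, 4 of 7 members had higher and 3 lower estimates at 3 months on the BASE-diet, and 6 were higher at 14 months, with medians of 0.028 and 0.038. With each array centred on its median, 3 and 2 were higher, and with a slide block 5 and 3. The largest positive and negative estimates at 3 months were those of Psma4, at 0.45, and Psma6, which a slide block moved to -0.15 and -0.020. Psma4 (chr8:58515747-58515806) read -0.76, -1.04, -1.13, -1.35 and -0.33 in CD 3 and ran from -1.07 to -0.049 with a median of -0.60 in CD 14, which gave 0.38 (95% interval -0.062 to 0.82, adjusted p = 0.571 by limma) for CD 14 minus CD 3. CD 14 rats 1 and 3 were above every CD 3 rat and the other 4 lay within the CD 3 range. With the slide as a block the estimate was -0.13. Psma6 (chr6:75667273-75667332) read -0.29, 0.0099, -0.14, 0.56 and 0.14 in CD 3 and -0.42, -0.61, -0.39, 0.0040 and 0.017 in BD 3, where the groups overlapped. Its difference was -0.34 (95% interval -0.72 to 0.051, adjusted p = 0.78 by limma).

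Among the 7 beta subunits, 5 were higher at 3 months and all 7 at 14 months on the BASE-diet by estimate, with medians of 0.075 and 0.11 on the log2 scale, while 4 were higher at each time with the Cy5 channel alone, 4 and 6 with each array centred on its median, and 7 and 4 with a slide block. The medians were 0.17 and 0.035 with the Cy5 channel alone and 0.29 and 0.0022 with a slide block. Psmb2 had the smallest spread within groups of all members, a residual SD of 0.143. Of the 2 probes of Psmb11 (chr15:32705019-32705078), the beta subunit of thymic epithelium, only the brightest was kept for testing. By that probe Psmb11 was above background in these livers too. Its CD 3 values of 1.18, -1.13, -0.037, 0.27 and -0.56 covered the whole range of the other groups. It ran from -0.40 to 0.11 in BD 3 and from -0.79 to -0.25 with a median of -0.33 in BD 14, and BD 14 minus BD 3 was -0.23 (95% interval -0.84 to 0.38, adjusted p = 0.871 by limma), which turned to 0.64 (standard error 0.49) with a slide block. It lacked a value on the array of CD 14 rat 1, where its spot was flagged, and the fit used the remaining 21 arrays.

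The ATPases of the base unfold the substrate. At 3 months 4 of 6 and at 14 months 5 of 6 had higher estimates on the BASE-diet (3 and 3 with each array centred on its median, 5 and 5 with a slide block), with medians of 0.048 and 0.076. Psmc4 read -0.96, 0.72, -0.43, -2.27 and -0.22 in CD 3 and 0.023, -0.033, -0.84, -0.40 and -0.13 in BD 3. It ran from -0.74 to 0.016 with a median of -0.39 in CD 14 and from -0.16 to 0.39 with a median of 0.12 in BD 14, so that CD 3 rat 2 lay above every BD 14 rat and the other 4 CD 3 rats below every one. Its differences were 0.48 (95% interval -0.20 to 1.15, adjusted p = 0.952 by limma) for diet at 14 months, 0.40 (95% interval -0.31 to 1.10, adjusted p = 0.802 by limma) for time on the BASE-diet and 0.75 (95% interval 0.046 to 1.46, adjusted p = 0.261 by limma) for BD 14 minus CD 3. Leaving out CD 3 rat 2 gave 1.09 for the last of these, with an adjusted p of 0.0338 by limma, and with the Cy5 channel alone the first pair were -0.075 and -0.18. Psmc6 (chr15:21238582-21238641) ran from -0.054 to 0.98 with a median of 0.15 in CD 14 and from -0.092 to 0.52 with a median of 0.20 in BD 14, and its difference was -0.14 (95% interval -0.60 to 0.32, adjusted p = 0.959 by limma). Leaving out CD 14 rat 4 shrank it to -0.014, while a block for the slide gave -0.37.

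The lid, which holds the deubiquitinase, had higher estimates on the BASE-diet for 7 of its 8 members at 3 months and for 7 at 14 months, with medians of 0.26 and 0.28 (53.2% and 54.4% of all genes tested were higher). The lid was higher for 6 to 8 of its members at each time with normexp and loess, with the Cy5 channel alone, with each array centred on its median and with the slide as a block. Its medians were 0.61 and 0.13 with the Cy5 channel alone. With the slide as a block they were 0.34 and 0.16, and 33 of the 41 members were higher at 3 months. Psmd3, Psmd8, Psmd13 and Psmd14 deviated together on the arrays of CD 3 rats 2 and 4, so lid members are not independent counts. Psmd6 was the exception at both times, at -0.020 and -0.046, or 0.062 and 0.029 with a slide block. Psmd7, the partner of the deubiquitinase in the lid, had the smallest p of the members in the F test (adjusted p = 0.395 by limma). It read -1.29, -1.38, -1.07, -2.01 and -0.60 in CD 3 and -0.54, -0.74, -0.54, -0.38 and -0.46 in BD 3. CD 3 rat 5 alone lay inside the BD 3 range, the other 4 CD 3 rats below it, and the 5 BD 3 rats stayed within a narrow band. At 14 months it ran from -1.40 to -0.21 with a median of -0.83 in CD 14 and from -0.95 to -0.29 with a median of -0.55 in BD 14, with much overlap. Its difference was 0.74 (95% interval 0.22 to 1.25, adjusted p = 0.492 by limma) for diet at 3 months, 0.20 (95% interval -0.27 to 0.66, adjusted p = 0.953 by limma) for diet at 14 months, 0.50 (95% interval 0.0067 to 0.99, adjusted p = 0.483 by limma) for time on the control diet and 0.69 (95% interval 0.20 to 1.19, adjusted p = 0.146 by limma) for BD 14 minus CD 3. With the slide as a block the estimate at 3 months was 0.21, and within the slide that held both groups, 2 BD 3 arrays and 1 CD 3 array, the difference was 0.65. The difference at 14 months was 0.65 with the slide as a block, the value within the slide of 6 BD 14 and 2 CD 14 arrays, and that for time on the control diet was 0.11, beside -0.49 within the slide of 1 CD 14 and 1 CD 3 array.

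Psmd3, another lid subunit, varied the most of all members within groups, with a residual SD of 0.766. This rank rests on CD 3 rats 2 and 4, without which it was 0.445, below Psmg2 (0.477), Psmd5 (0.474), Psmd14 (0.472) and Psmd13 (0.459). Psmd3 read -0.51, 1.39, 0.38, -2.44 and -0.76 in CD 3, the widest spread of any member in any group, and 0.021, 0.029, -0.95, -0.45 and -0.015 in BD 3. At 14 months it ran from -1.34 to 0.066 with a median of -0.60 in CD 14 and from -0.37 to 0.31 with a median of -0.034 in BD 14. CD 14 rat 4 lay within the BD 14 range and the other 5 CD 14 rats below it. Its difference for diet at 14 months was 0.64 (95% interval -0.23 to 1.51, adjusted p = 0.952 by limma), the largest of the members there (0.23 with the slide as a block), and that for time on the control diet was -0.29 (95% interval -1.20 to 0.63, adjusted p = 0.886 by limma) (-0.17 with the block, 0.16 without CD 3 rat 2).

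Psmd13 (chr1:201055782-201055841), also of the lid, ran from -1.32 to 0.0035 with a median of -0.46 in CD 14 and from -0.40 to 0.11 with a median of -0.0066 in BD 14. CD 14 rats 1, 2 and 6 lay below every BD 14 rat. Its difference was 0.50 (95% interval -0.20 to 1.20, adjusted p = 0.952 by limma), and 0.10 with the slide as a block. Psmd14, the deubiquitinase itself, read 0.16, 0.13, -0.49, 0.13 and 0.11 in BD 3 and ran from 0.011 to 1.11 with a median of 0.35 in BD 14. BD 14 minus BD 3 was 0.42 (95% interval -0.30 to 1.13, adjusted p = 0.796 by limma). BD 3 rat 3 stood below its group, and in both genes the groups overlapped. With the slide as a block the Psmd14 estimate was -0.24.

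**Figure D3:**
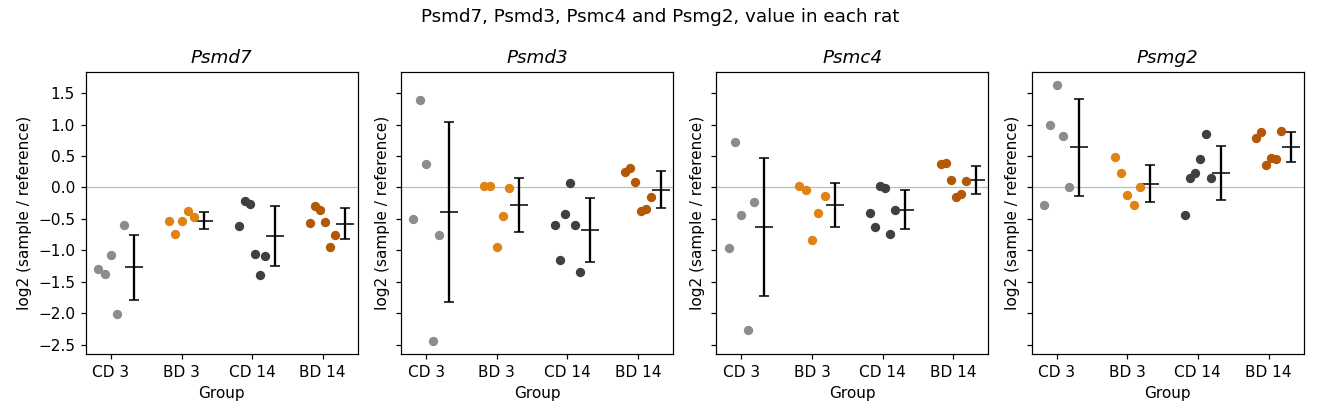
log2 ratio to the reference in each rat (points) for Psmd7, Psmd3, Psmc4 and Psmg2, with the mean and SD of each group beside the points. The CD 3 group is the most spread in all 4 panels, and Psmd3 runs from -2.44 to 1.39 within it.

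The scaffold and receptor subunits of the base, Psmd1, Psmd2 and Psmd4, had differences by diet between -0.21 and 0.37 at 3 months and between -0.051 and 0.20 at 14 months, none past the threshold. The chaperones that assemble the base were Psmd5, Psmd9 and Psmd10. Psmd5 (chr3:13862387-13862446) read -1.32, 0.54, 0.39, -1.33 and 0.16 in CD 3 and 0.22, 0.39, -0.20, 0.24 and 0.28 in BD 3. CD 3 rats 1 and 4 were far below all others, and the remaining 3 lay within or above the BD 3 range. The difference by diet was 0.50 (95% interval -0.20 to 1.20, adjusted p = 0.825 by limma), and that for time on the control diet was 0.41 (95% interval -0.26 to 1.08, adjusted p = 0.716 by limma). Leaving out each rat gave 0.24 to 0.71 and 0.16 to 0.63, lowest without CD 3 rat 4 and highest without CD 3 rat 2, and the slide as a block gave 0.91 and 0.58.

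Psmd9 (chr12:34500670-34500729) ran from -0.95 to 0.15 with a median of -0.20 in CD 14 and from -1.01 to -0.0068 with a median of -0.36 in BD 14, and it read 0.060, 0.20, -0.33, -0.44 and -0.020 in BD 3, with overlap in both comparisons. Its differences were -0.36 (95% interval -0.78 to 0.073, adjusted p = 0.731 by limma) for BD 14 minus BD 3 and -0.14 (95% interval -0.55 to 0.27, adjusted p = 0.956 by limma) for diet at 14 months. A slide block turned these to 0.14 and 0.12, and the Cy5 channel alone gave 0.088 for the latter. A second probe of Psmd9 gave estimates of 0.064 and 0.21 in the same comparisons, opposite in sign. The inhibitor Psmf1 also had probes that disagreed: BD 14 minus BD 3 was -0.058 by its brightest probe (0.031 with a slide block) and 0.54 by the other, with an adjusted p of 0.814 by limma for the latter. In Psmg4, the remaining core chaperone, both probes gave lower estimates on the BASE-diet at both times, the brightest -0.11 and -0.10, which a slide block turned to 0.49 and 0.050.

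The core chaperones Psmg1 and Psmg2 work as a pair on the alpha ring. Psmg1 (chr11:36283582-36283641) ran from -0.38 to -0.013 with a median of -0.24 in CD 14 and from -0.88 to -0.16 with a median of -0.44 in BD 14, and read -0.24, -0.20, -0.066, -0.25 and -0.037 in BD 3. BD 14 rats 2, 3 and 5 were below every CD 14 and BD 3 rat. The differences were -0.26 (95% interval -0.57 to 0.046, adjusted p = 0.952 by limma) for diet at 14 months and -0.30 (95% interval -0.63 to 0.019, adjusted p = 0.696 by limma) for time on the BASE-diet. With the slide as a block these were -0.12 and -0.13.

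Psmg2 (chr18:64190995-64193104, a probe that spans an intron) read -0.27, 1.00, 1.63, 0.82 and 0.015 in CD 3 and 0.48, 0.22, -0.13, -0.27 and 0.0082 in BD 3. CD 3 rats 2, 3 and 4 were above every BD 3 rat, and those 3 arrays made up 1 slide. It ran from -0.44 to 0.84 with a median of 0.19 in CD 14 and from 0.36 to 0.89 with a median of 0.62 in BD 14. The differences by diet were -0.58 (95% interval -1.18 to 0.031, adjusted p = 0.733 by limma) at 3 months and 0.41 (95% interval -0.15 to 0.96, adjusted p = 0.952 by limma) at 14 months, the interaction was 0.98 (95% interval 0.16 to 1.81, adjusted p = 0.993 by limma), and BD 14 minus BD 3 was 0.58 (95% interval -0.0044 to 1.16, adjusted p = 0.676 by limma). With the slide as a block the difference at 3 months was 0.41, that for time on the control diet was 0.42 in place of -0.41, that at 14 months was -0.011 and the interaction was -0.42, so these 4 directions turned, and BD 14 minus BD 3 was 0.0024. Leaving out each rat, without a block, gave -0.80 to -0.33 for diet at 3 months and -0.64 to -0.16 for time on the control diet.

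Psmc3ip (chr10:90109150-90109280), which is no subunit, read -0.23, 0.61, 1.54 and 0.12 in CD 3 rats 2 to 5, the array of rat 1 lacking a value, and -0.21, -0.054, 0.0049, 0.32 and 0.47 in BD 3. CD 3 rat 4 was the highest of all. The difference by diet was -0.41 (95% interval -1.03 to 0.21, adjusted p = 0.84 by limma), and CD 14 minus CD 3 was -0.29. Without CD 3 rat 4 the difference by diet was -0.064 and CD 14 minus CD 3 turned to 0.048. With a slide block these were -0.23 and -0.30. Psma3l differed by 0.011 and -0.095 for diet at 3 and 14 months (-0.084 and -0.047 with a slide block), and since its probe lies at the Psma3 locus its signal cannot be held apart from that gene with certainty.

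With time, the median difference was 0.015 for CD 14 minus CD 3 (all genes 0.028) and 0.0088 for BD 14 minus BD 3 (all genes 0.060), with 22 members higher and 19 lower in both. With each array centred on its median, 14 and 15 members were higher (medians -0.022 and -0.050), and with the slide as a block 29 and 12 were higher (medians 0.11 and -0.11), so the direction of the list with time depended on the scaling and the slide. Within the slide of 1 CD 14 and 1 CD 3 array, 13 members were higher and 28 lower (median -0.092). For BD 14 minus CD 3, which joins diet and time, it was 0.062 (all genes 0.090), which turned to -0.038 with centred arrays and -0.018 with the Cy5 channel alone, and the 5 members with an unadjusted p under 0.05 were Psma4, Psmb7, Psmc4, Psmd4 and Psmd7. The 95% interval lay within 1 of 0 for 39 members in CD 14 minus CD 3 (57.0% of all genes), 37 in BD 14 minus BD 3 (58.9%), 33 in BD 14 minus CD 3 (51.8%) and 31 for the interaction (34.2%). All comparisons with CD 3 share its 5 arrays. Without CD 3 rat 2, Psmb7 at 0.73 (adjusted p = 0.0337 by limma) and Psmc4 passed for BD 14 minus CD 3. With the Cy5 channel alone Psmd14 passed, at 1.17 (adjusted p = 0.0281 by limma).

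Most members varied less between rats of a group than the median gene. Their residual SD had a median of 0.318 on the log2 scale, beside 0.520 over all genes tested and 0.442 over the 12517 genes well above background on all arrays, and 36 of 41 lay under the first and 30 under the second. The steadiest after Psmb2 were Psmd6 (0.174) and Psmd1 (0.188). The median of the members on an array ran from -0.46 to -0.037 in CD 3, from -0.48 to 0.017 in BD 3, from -0.39 to -0.021 in CD 14 and from -0.30 to 0.016 in BD 14, so that all groups covered about the same range. The CD 3 group was the most spread for 28 members and for 67.2% of all genes.

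**Figure D4:**
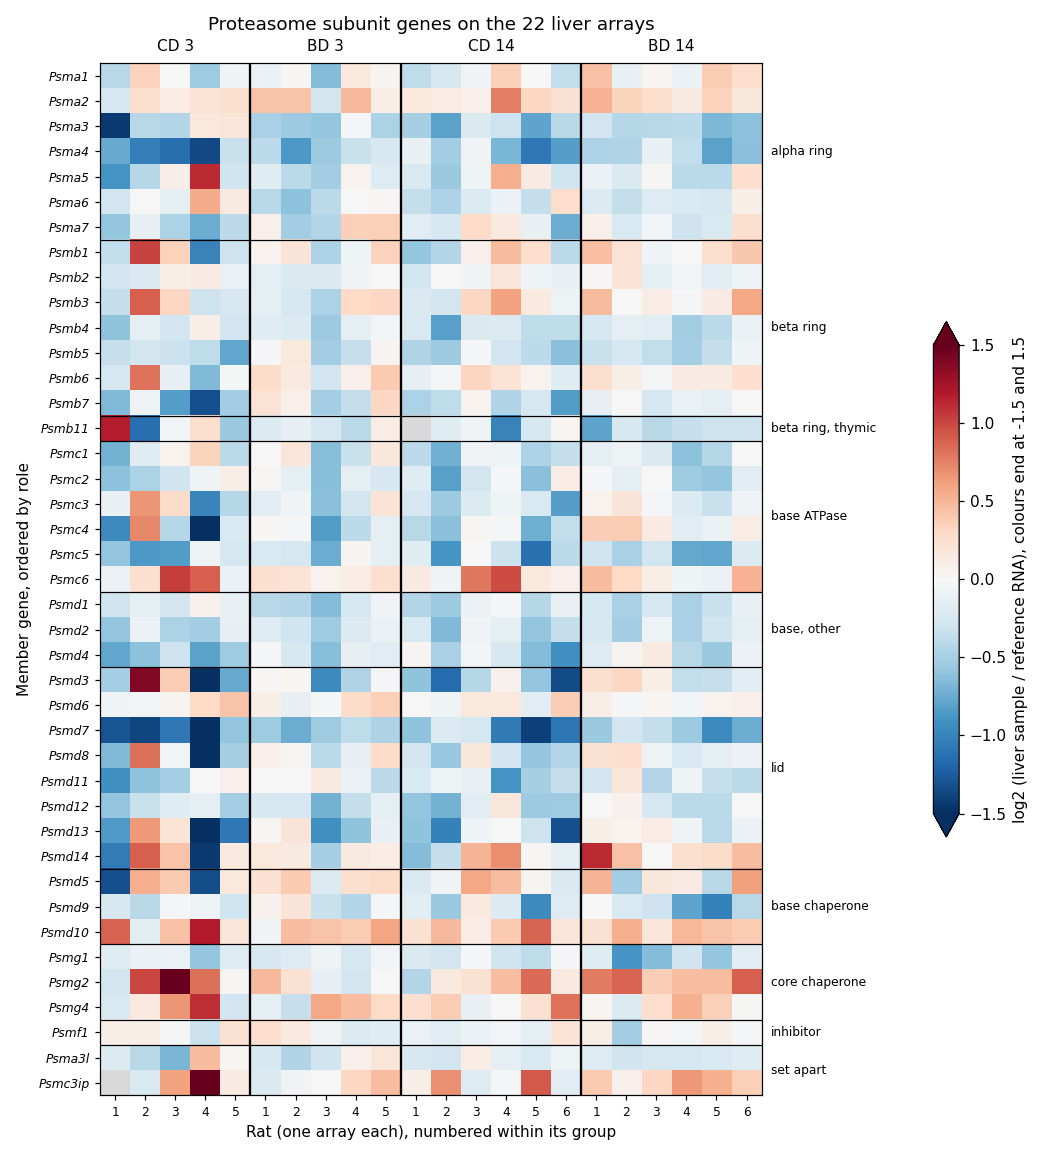
log2 ratio to the reference of the 41 members (rows, ordered by role) on the 22 arrays (columns, by group and rat), with grey for a missing value. No group stands apart over its rows, and the columns of CD 3 rats 2 and 4 carry the strongest colours, in opposite directions for several lid and ATPase subunits.

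Some members deviated together between rats of a group. Over the 820 pairs, the correlation of their deviations from the group means across the 22 arrays had a median of 0.19, beside 0.013 over pairs of all genes. These points share arrays, reference and slides, so the values are a description. The closest pairs were Psmc3 with Psmd3 (r = 0.96), Psmd3 with Psmd13 (0.95) and Psmc4 with Psmd8 (0.95), and 32 pairs were over 0.8. Other pairs went in opposite directions, the lower quartile over all pairs being -0.11 and the upper 0.46. Among members, a pair of control arrays stood out. Genes in general were spread there too: the SD of deviations from the CD 3 mean was 0.74 over members and 0.99 over all genes on the array of CD 3 rat 4, 0.61 and 0.76 on that of CD 3 rat 2, and 0.40 and 0.81 on that of CD 3 rat 1. On that of CD 3 rat 4, 11 members lay more than 0.5 below their CD 3 mean and 8 more than 0.5 above, and on that of CD 3 rat 2, 11 lay more than 0.5 above and 3 below. The same 10 members were low on the first and high on the second: Psmd3, Psmc4, Psmd8, Psmd13, Psmd14, Psmd5, Psmb1, Psmc3, Psmb7 and Psmb6. The share of all genes with this pattern was not analysed here. Both arrays enter the CD 3 mean, so deviations of opposite sign are partly built in. Psmd3 deviated by -2.05 and 1.78, and Psmc4 by -1.64 and 1.35. The array of CD 3 rat 4 is the dim one, and its part in this was not tested. Without the pair of arrays the median correlation was 0.28 (0.020 over all genes), the residual SD of the members had a median of 0.298, and 11 of the 32 pairs were still over 0.8.

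**Figure D5:**
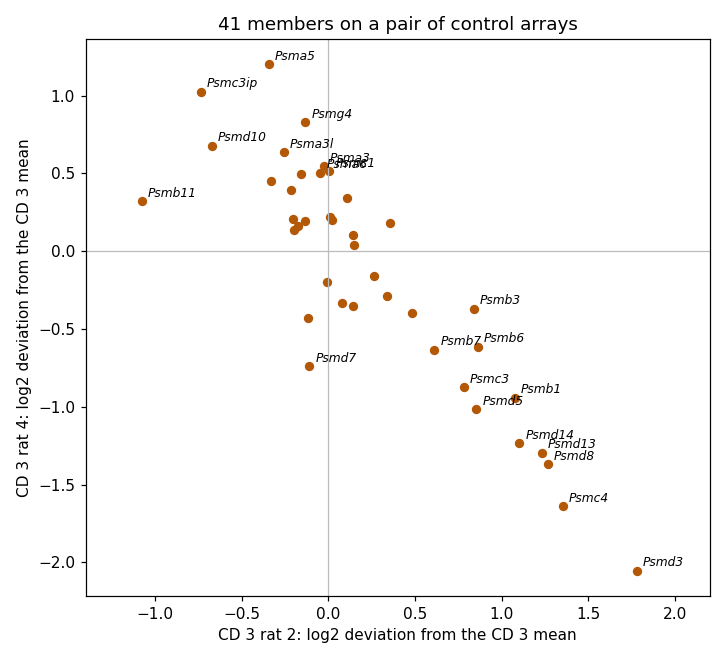
Deviation of each member from its CD 3 mean, in log2 units, in CD 3 rat 2 (horizontal axis) and CD 3 rat 4 (vertical axis). Points at lower right are the 10 members high in rat 2 and low in rat 4, and Psma5 and Psmc3ip lie highest in rat 4.

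Other genes of the pathway did not pass the test either. Of the 4 activators that cap the core, Psme1 to Psme4, 0 were called in any comparison, and 1 had an unadjusted p under 0.05, Psme2 at 0.56 for CD 14 minus CD 3 (adjusted p = 0.466 by limma). Their differences by diet at 3 and 14 months were 0.10 and 0.044 for Psme1, 0.092 and -0.24 for Psme2, 0.30 and 0.30 for Psme3, and 0.077 and 0.22 for Psme4. Of 12 partners of the proteasome, such as Adrm1, Pomp, Usp14 and Vcp, 0 were called. Pomp, the maturation factor of the core, read -0.080, -0.54, -0.76, -0.62 and -0.41 in CD 3 and -0.19, -0.10, -0.20, -0.20 and -0.062 in BD 3, and its difference was 0.33 (adjusted p = 0.652 by limma). All but rat 1 of the CD 3 rats lay below every BD 3 rat. Of 5 regulators, 0 were called, and Nfe2l1 differed by -0.26 for diet at 3 months and -0.039 at 14 months, and Nfe2l2 by -0.49 and -0.13, with adjusted p of 0.54 and 0.955 by limma. The estimates at 3 and 14 months were 0.65 and 0.59 for Keap1, 0.20 and 0.14 for Ddi2 and 0.26 and 0.033 for Ngly1. Nfe2l2 had 0.57 for BD 14 minus BD 3 (adjusted p = 0.396 by limma). It read 0.66, 0.53, 1.04, 0.19 and 0.86 in CD 3 and -0.12, 0.026, 0.57, 0.20 and 0.16 in BD 3, where CD 3 rats 2 and 4 and BD 3 rats 3 and 4 lay in the range of the other group. The 4 ubiquitin genes and the ubiquitin-activating enzymes Uba1 and Uba6 had 0 calls in every comparison.

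The promoters of the members were read because these genes are known to be made together. The RefSeq table of build GRCr8 held 35 of the 41, as windows of 300 bases, 250 before and 50 after the start, and Psma7, Psma3l, Psmb11, Psmd6, Psmd12 and Psmd14 had no entry. CCGGAA, a core that ETS factors can bind, was in 18 of the 35 on either strand (51.4%), beside 15.0% of all 33469 windows and 17.7% of the 21851 of protein-coding genes. CCAAT was in 18 (51.4%), beside 37.5% and 38.0%, and TGACNNNGC, a form of the element Nfe2l1 and Nfe2l2 can bind, was in 7 (20%), beside 12.1% and 12.5%. The 7 were Psmb2, Psmb5, Psmb6, Psma3, Psmd1, Psmd3 and Psmd9. The median GC content was 56.0% in the windows of members and 55.0% in those of protein-coding genes. A match is a run of letters only. The 250 bases before the start are printed for Psmb5, Psmb6, Psmb7 and Psmd7, with capitals for any match to the 3 motifs on either strand. No matches overlap there.
Psmb5, chr15:32047380-32047629, minus strand: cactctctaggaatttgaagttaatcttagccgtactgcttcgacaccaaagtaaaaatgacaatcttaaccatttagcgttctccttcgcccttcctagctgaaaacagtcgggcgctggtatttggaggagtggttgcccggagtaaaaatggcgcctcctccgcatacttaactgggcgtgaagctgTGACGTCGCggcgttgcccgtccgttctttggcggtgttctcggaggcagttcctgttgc
Psmb6, chr10:55737638-55737887, plus strand: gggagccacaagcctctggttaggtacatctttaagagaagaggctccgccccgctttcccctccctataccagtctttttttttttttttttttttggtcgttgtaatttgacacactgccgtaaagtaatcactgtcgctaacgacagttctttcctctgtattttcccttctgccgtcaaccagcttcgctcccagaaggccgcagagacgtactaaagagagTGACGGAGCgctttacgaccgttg
Psmb7, chr3:42827471-42827720, minus strand: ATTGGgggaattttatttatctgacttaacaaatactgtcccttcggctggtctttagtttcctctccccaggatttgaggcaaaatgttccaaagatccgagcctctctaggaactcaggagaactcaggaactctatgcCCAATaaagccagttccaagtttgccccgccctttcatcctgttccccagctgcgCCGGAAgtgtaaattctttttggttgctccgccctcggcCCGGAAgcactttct
Psmd7, chr19:52411317-52411566, minus strand: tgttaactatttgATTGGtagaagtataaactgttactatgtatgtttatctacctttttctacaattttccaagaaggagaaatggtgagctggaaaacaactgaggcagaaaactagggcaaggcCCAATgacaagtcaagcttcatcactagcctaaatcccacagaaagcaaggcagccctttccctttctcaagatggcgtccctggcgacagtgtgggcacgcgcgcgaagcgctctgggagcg
Psmb5 and Psmb6 each held 1 TGACNNNGC and neither of the others. Psmb7 held 2 CCAAT and 2 CCGGAA, and Psmd7 held 2 CCAAT, with a CCGGAA in the 50 bases after its start.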

How the data were processed

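Liver RNA of 22 rats was hybridised to 22 Agilent two-colour rat arrays. The files deposited by the authors are Agilent Feature Extraction outputs (10.7.3.1 per the labels, 10.10.1.1 per the file headers), with the processed and raw intensity of each spot per channel and a log10 ratio of Cy5 to Cy3, background-subtracted and dye-normalized by that software. Per the labels Cy5 is the rat and Cy3 the common reference on every array. The study's methods name Cy3 for control and Cy5 for BASE-diet rats, and the labels were followed. No dye was swapped, so a dye effect common to all arrays stays in the levels but not in the differences. A deposited log2 table of the authors held no probe of a member and was not used here.

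Log2 ratios were computed, leaving out control spots and outlier-flagged spots, and spots of a probe were averaged. Probes were kept where, in at least 1 group, every array had a share of 0.5 or more of their spots well above the Cy5 background, 19434 in all, and the brightest probe of each of 17063 genes gave the background counts. Each probe was fitted by limma 3.58.1 (lmFit and eBayes, R 4.3.3) with 4 groups, with Benjamini-Hochberg adjustment over all probes kept. An adjusted p under 0.05 was called. Arrays carry no counts, so their number limits the precision. The fit was tested on simulated data. Members named with their values were, by rule, the catalytic subunits and, in each comparison of diet at 1 time or time on 1 diet, the 3 members with the highest and the 3 with the lowest estimates, with the smallest p of each test and second probes of opposite sign. Others, such as Psmb2, Psmd1, Psmd4, Psmd6, the correlated pairs and Nfe2l2, were named after their values were seen. The members and lists were chosen with earlier results of these data known. Motifs were searched on both strands in RefSeq promoter windows. Correlations were taken between deviations from group means. Alternatives were another background correction and normalization, the Cy5 channel alone, centring, filters, flagged spots kept, slide or rat number as a block, an intensity trend, array weights, fewer groups in the fit, the methods' F test with Tukey's comparisons, and each rat left out.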

Additional observations from a re-analysis of the deposited data

Results flagged for a closer look

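Of the 72 groups of values examined, 7 held 1 rat whose gap to the nearest other was large for the range of the group by Dixon's criterion, which chance alone does in about 1 in 20 groups. In Psmb11, CD 14 rat 4 stood at -1.01 on the log2 scale, with the others between -0.24 and 0.035, and BD 14 rat 1 stood at -0.79, with the others between -0.42 and -0.25. In Psmb5, CD 3 rat 5 stood at -0.78 while the others lay between -0.38 and -0.28. For Psmg1, CD 3 rat 4 stood at -0.58 and the others between -0.19 and -0.085. BD 3 rat 3 was low in Psmd14 at -0.49 (others 0.11 to 0.16), in Psmd5 at -0.20 (others 0.22 to 0.39) and in the median of the 41 members on the array at -0.48 (others -0.12 to 0.017).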

How the results depend on the processing

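Under the alternatives run, 0 members passed in each comparison with 2 exceptions, both in BD 14 minus CD 3. These were 1 member with the Cy5 channel alone (2.68% of all genes) and 2 without CD 3 rat 2 (7.03%), so that leaving out each rat gave 0 to 2. The list medians moved with the slide. For diet at 3 months the median was 0.23 with the slide as a block (all genes 0.15) and 0.40 within the shared slide (all genes 0.26), and for the interaction it was -0.18 with the block (all genes -0.12). The block gave 0.029 for diet at 14 months, 0.11 for time on the control diet and -0.11 for time on the BASE-diet. Within the slide of 1 CD 14 and 1 CD 3 array, time on the control diet gave -0.092 (all genes -0.00088), and Psmb6, Psmb7 and Psmd7 turned to -0.15, -0.31 and -0.49. Leaving out each rat gave list medians of -0.00049 to 0.16 for diet at 3 months, 0.034 to 0.14 for diet at 14 months, -0.068 to 0.044 and -0.047 to 0.056 for time on the control and BASE-diets and -0.032 to 0.11 for the interaction. For BD 14 minus CD 3 it gave 0.030 to 0.13, centred arrays -0.038 and the Cy5 channel alone -0.018. Members with an unadjusted p under 0.05 numbered 0 to 9 for diet at 3 months, 0 to 6 at 14 months and 0 to 10 for BD 14 minus CD 3. The highest of these, 9, 6 and 10 of the 41, stood beside 14.6% of all genes (Cy5 channel alone), 9.95% (array weights) and 24.9% (without CD 3 rat 2), so that the members' share was above the background in the first pair of fits. For diet at 3 months it was above the background in other fits too. It was 17.1% beside 8.36% with normexp and loess, and 12.2% beside 6.39% without BD 3 rat 3. The median correlation among members was 0.28 without CD 3 rats 2 and 4, an alternative chosen after seeing the data.

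Directions turned for some named members. With the slide as a block, Psmg2 was 0.41 for diet at 3 months, -0.011 for diet at 14 months, 0.42 for time on the control diet and -0.42 for the interaction, Psma4 was -0.13 for time on the control diet, and Psmd9 was 0.12 for diet at 14 months. Under the same block BD 14 minus BD 3 was 0.14 for Psmd9, -0.11 for Psmb6, 0.0071 for Psmb7, 0.64 for Psmb11 and -0.24 for Psmd14. With the Cy5 channel alone, diet at 14 months was -0.16 for Psmb5, -0.22 for Psmb7, 0.088 for Psmd9, 0.031 for Psmc6 and -0.075 for Psmc4, time on the control diet was -0.10 for Psmb5 and 0.31 for Psmd3, and time on the BASE-diet was -0.13 for Psmb6 and -0.18 for Psmc4. Array weights gave -0.0046 for Psmb6 with time on the control diet, and centred arrays gave -0.050 for Psmb6 with time on the BASE-diet. The cause of these turns was not tested. Leaving out each rat gave, for time on the control diet, -0.051 to 0.086 for Psmb5, -0.060 to 0.31 for Psmb6, -0.54 to 0.048 for Psmc3ip (positive without CD 3 rat 4) and -0.80 to 0.16 for Psmd3 (positive without CD 3 rat 2), and, for time on the BASE-diet, -0.095 to 0.078 for Psmb6 and -0.16 to 0.044 for Psmb7. Among the comparisons for which members were named by rule, and within-slide values aside, the other 1262 values under alternatives kept their direction and their side of the threshold, though sizes moved, as for Psmc3ip with diet at 3 months, -0.65 to -0.064 on leaving out each rat, and Psmb6, 0.023 to 0.39.

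The rat number as a replicate block called 0 members in every comparison, and the list medians were 0.058 for diet at 3 months and 0.068 at 14 months. Numbers only name the rats here: deviations of same-numbered rats correlated with a median of -0.019 over 31 pairs and those of other pairs with -0.025. The interaction uses all 4 groups, so a fit on only the groups compared has no value of its own, and the authors' log2 table gave no value for a member. All members were well above background on all 22 arrays, so background set no bound on their values.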
